A study of Mus musculus with 28 samples.

Results

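The IL-12 family is a group of cytokines that are each built from 2 different chains, and the genes of 5 of these chains and of 2 receptor chains were followed here in mouse macrophages. The 7 genes (Il12a, Il12b, Il23a, Ebi3, Il27, Il12rb1 and Il12rb2) were taken by name from the 27670 gene names of the array. Each has a single probe. All 7 were among the 22452 genes that were tested, since the scanner software marked their probe as well above background on 3 or more arrays.

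Il12b encodes p40, which pairs with p35 (Il12a) to form IL-12 and with p19 (Il23a) to form IL-23. Ebi3 pairs with p28 (Il27) to form IL-27, and with p35 to form IL-35. Il12rb1 encodes a receptor chain that IL-12 and IL-23 share, and Il12rb2 encodes the chain that completes the IL-12 receptor and signals through STAT4. Macrophages and dendritic cells are known sources of IL-12, IL-23 and IL-27, with which they steer T cells and NK cells, while the IL-12 receptor is best known from those lymphocytes.

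RNA came from bone marrow-derived macrophages of C57BL6/J mice aged 8 to 12 weeks. Marrow of several animals was pooled, the labels give 2 males and 1 female, and all groups were grown in human rCSF1 (200 ng/ml), the macrophage growth factor. From day 7 cells were primed for 18 h with IL-4 (10 ng/ml), a cytokine of type 2 immunity, or with IFN-γ (100 U/ml), a cytokine made by T and NK cells, or were left unprimed, and LPS (10 ng/ml), a bacterial ligand of TLR4, was present during the last 4 h where it was given. The 6 groups were IL-4 with LPS (4 arrays), IFN-γ with LPS (3), LPS (7), IL-4 (4), IFN-γ (3) and untreated (7). No label says that the arrays of a group came from separate animals, so p-values measure the spread between these arrays, which may be technical. All groups are of the same strain. A change in RNA per cell cannot be told apart from a change in the number of cells that hold it.

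Levels are given as log2 of the deposited scanner signal minus the 75th percentile of the same array, so that 0 is the 75th percentile. The array with the dimmest percentile was at 582 intensity units and the brightest at 2113. Between 60.0% and 78.6% of an array's gene probes exceeded background. A level says nothing about the level of another gene, because probes differ in brightness. Differences are log2 fold changes ± standard error from limma, and a gene was called where the Benjamini-Hochberg adjusted p over all 22452 genes was under 0.05. Where the lower group had 0 arrays above background, the fold is a bound, written "at least".

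Replicates carry experiment letters. The authors' value table does not bear out those letters for single arrays. Of the 28 scanner files, 2 were closest to the value-table column of their own sample and 15 to a column of their own group (14 of 14 unprimed and 1 of 14 primed), at correlations of 0.997 to 0.999. The known IL-4 target Retnla followed the labels of the scanner files, at 7.28 to 8.31 on the 8 arrays given IL-4 and at -9.43 to -6.60 on the other 20. Cxcl9 was at 6.94 to 8.17 on arrays given IFN-γ and at most 6.07 on the others. Il6 was at 3.08 to 7.2 on arrays given LPS and at most -1 on the others. The groups of the scanner files were therefore used. None of these genes bears on the letters, so which letter each array carries is uncertain, primed arrays included. All 8 macrophage markers examined (Csf1r, Adgre1, Cd68, Mertk, Itgam, Fcgr1, Lyz2 and Cd14) were well above background on every array.

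For 4 of the 7 genes the RefSeq promoter table (GRCm38.p6) held an entry, and the 250 bases before each start are shown so that the region upstream of the cytokine chains that moved with LPS (Il12a, Il12b, Ebi3) and of the receptor chain that moved with IFN-γ (Il12rb2) can be seen. Il12a has 2 entries, whose starts are 780 bases apart. Capitals mark matches to 6 motifs searched on both strands.
Il12a, upstream start, chr3:68690394-68690643, plus strand: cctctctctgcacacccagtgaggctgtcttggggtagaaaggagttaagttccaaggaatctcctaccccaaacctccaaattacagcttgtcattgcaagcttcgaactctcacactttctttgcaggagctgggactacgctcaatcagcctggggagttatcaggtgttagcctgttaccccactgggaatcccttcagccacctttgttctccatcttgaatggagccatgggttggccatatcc
Il12a, downstream start, chr3:68691174-68691423, plus strand: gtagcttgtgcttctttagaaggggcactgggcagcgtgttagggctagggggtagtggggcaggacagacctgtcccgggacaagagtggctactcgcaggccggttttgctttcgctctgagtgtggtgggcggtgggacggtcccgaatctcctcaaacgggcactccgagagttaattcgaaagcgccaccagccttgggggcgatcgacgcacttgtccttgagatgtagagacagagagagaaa
Il12b, chr11:44399813-44400062, plus strand: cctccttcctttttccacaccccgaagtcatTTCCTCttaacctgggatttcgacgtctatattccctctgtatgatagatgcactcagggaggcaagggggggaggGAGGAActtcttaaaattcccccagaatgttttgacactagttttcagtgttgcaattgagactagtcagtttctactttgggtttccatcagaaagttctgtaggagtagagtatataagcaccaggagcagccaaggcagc
Ebi3, chr17:55952373-55952622, plus strand: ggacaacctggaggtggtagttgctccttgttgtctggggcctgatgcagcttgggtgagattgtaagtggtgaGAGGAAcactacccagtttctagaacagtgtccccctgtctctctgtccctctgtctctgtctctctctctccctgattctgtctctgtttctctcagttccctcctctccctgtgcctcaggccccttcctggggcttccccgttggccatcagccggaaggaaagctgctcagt
Il12rb2, chr6:67376189-67376438, minus strand: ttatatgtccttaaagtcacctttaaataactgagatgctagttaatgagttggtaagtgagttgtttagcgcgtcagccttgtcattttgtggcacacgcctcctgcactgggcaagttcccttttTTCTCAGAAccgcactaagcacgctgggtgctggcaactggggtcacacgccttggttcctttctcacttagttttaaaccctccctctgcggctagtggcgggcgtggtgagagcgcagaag
The motifs were kappaB (GGGNNTTTC), the IRF element (GAAANNGAA), GAS (TTCNNNGAA), C/EBP (TTNNGNAA), AP-1 (TGANTCA) and PU.1 (GAGGAA). Il12b held 2 PU.1 matches, 219 to 214 and 143 to 138 bases before its start, and Ebi3 held 1, 176 to 171 bases before its start. PU.1 letters occur in 23.3% of 32851 promoter windows of this length. Il12rb2 held a GAS match, TTCTCAGAA, 123 to 115 bases before its start, and 7.02% of windows hold one. No capitals appear in either Il12a window, and the letters of kappaB (3.72% of windows), the IRF element (7.13%), C/EBP (36.8%) and AP-1 (6.75%) were in none of the 5. None of the motifs overlapped another. A match is a description of letters, not a site, and a missing match does not show that a site is absent.

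**Figure D1:**
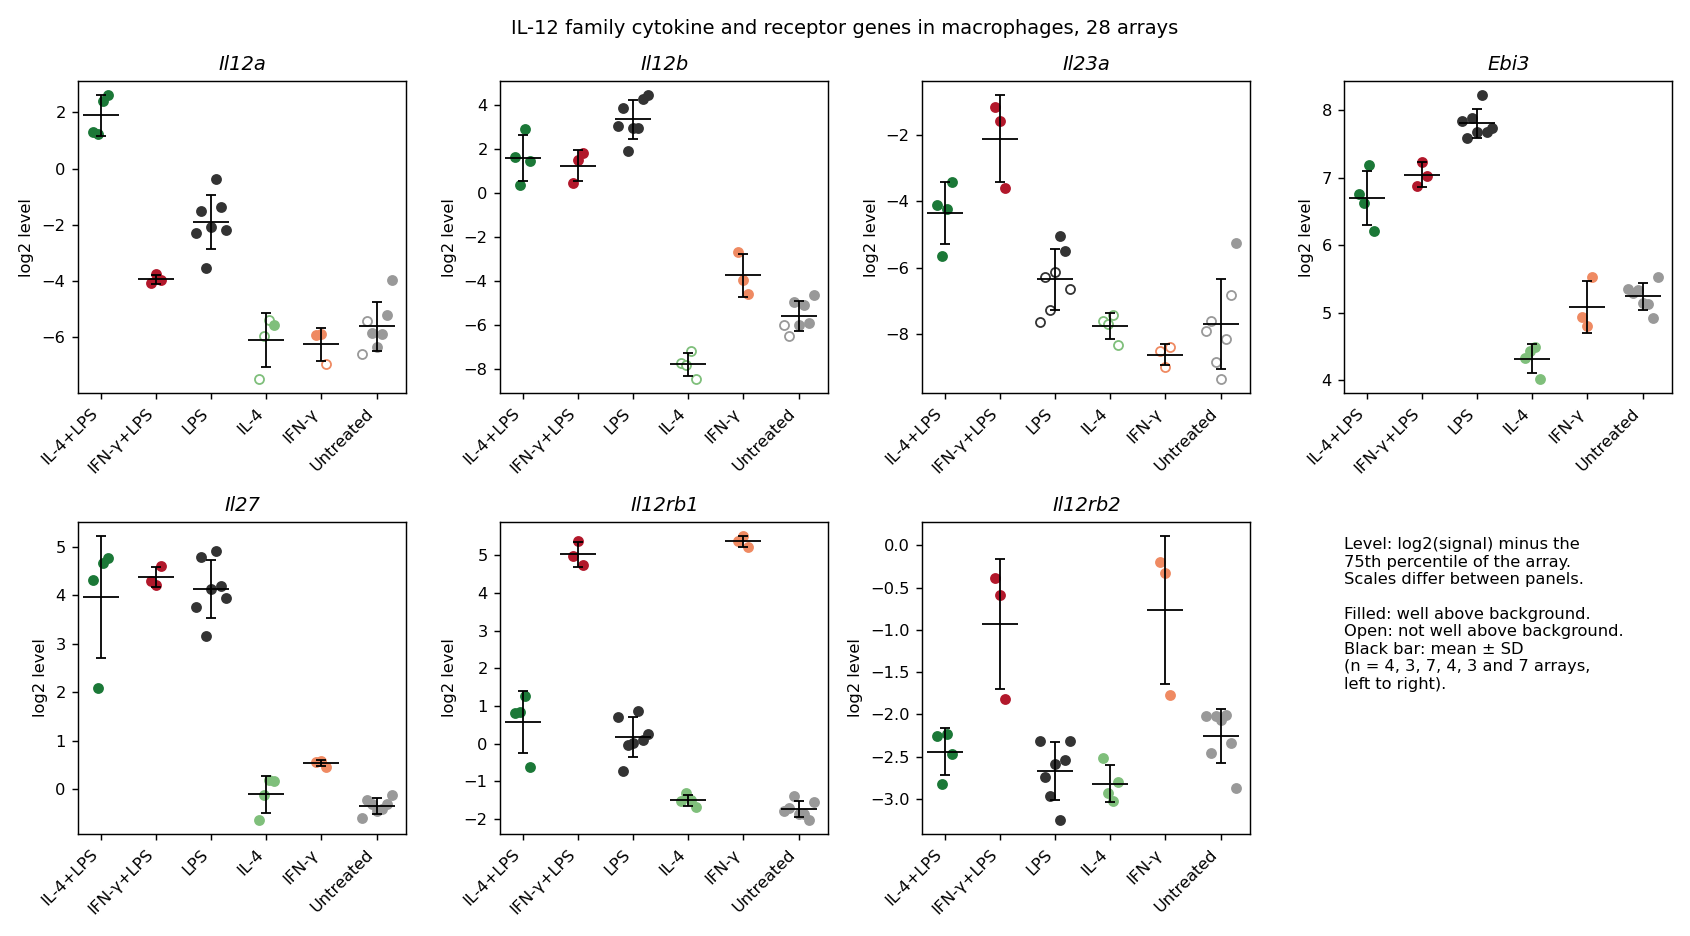
Level of each gene on each of the 28 arrays (vertical axis, log2 signal minus the array's 75th percentile; groups along the horizontal axis). Filled points were well above background and open points were not, and black bars give mean ± SD. Il12a stood highest in IL-4 with LPS (mean 1.90), Il12b and Ebi3 in LPS alone (3.36 and 7.80), Il23a in IFN-γ with LPS (-2.11), and both receptor genes in the 2 IFN-γ groups.

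In cells without priming, LPS raised both chains of IL-12, both chains of IL-27 and the receptor gene Il12rb1. Of the 7 genes 6 were higher and 0 lower, against 20.8% higher and 21.6% lower of all genes tested, and the median change was 2.56, against 0.05 over all genes. Il12b moved most. It ran from 1.94 to 4.46 (median 3.05) on the LPS arrays and from -6.47 to -4.62 (median -5.88) on the untreated arrays, a change of 8.92 ± 0.42 or 486-fold (adjusted p = 8.18e-15). Every LPS array lay above every untreated array by more than the range of either group. Its IL-12 partner Il12a ran from -3.53 to -0.38 (median -2.07) with LPS and from -6.61 to -3.97 (median -5.86) without, a change of 3.72 ± 0.43 (13.1-fold, adjusted p = 7.45e-08). The closest arrays of the 2 groups, -3.53 with LPS and -3.97 untreated, were under 1 log2 unit apart.

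Both IL-27 chains were well above background on every array. Il27, the p28 gene, ran from 3.16 to 4.91 (median 4.12) with LPS and from -0.60 to -0.11 (median -0.30) untreated, and rose by 4.47 ± 0.31 (22.1-fold, adjusted p = 7.59e-12). Ebi3 ran from 7.58 to 8.22 (median 7.74) with LPS and from 4.92 to 5.53 (median 5.29) untreated, and rose by 2.56 ± 0.15 (5.89-fold, adjusted p = 3.53e-13). Neither gene's groups overlapped. Ebi3 had the smallest spread of the 7 genes, with an SD of at most 0.40 in any group.

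Il23a, the p19 gene, stayed near the detection limit with LPS alone, where it was well above background on 2 of 7 arrays, against 1 of 7 untreated arrays. Its levels of -7.63 to -5.03 (median -6.28) with LPS and -9.34 to -5.27 (median -7.90) untreated overlapped. The difference of 1.35 ± 0.52 passed at adjusted p = 0.039, and 11 of the other settings tried ended that call, among them the array sets without LPS replicate B, D, E or F or untreated replicate A, B, C, D or E, where it ran from 1.07 to 1.37. With normexp background correction, which models and removes the background signal of the array, it was 0.28 (adjusted p = 1).

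Of the receptor genes, Il12rb1 rose by 1.91 ± 0.23 (3.76-fold, adjusted p = 1.93e-07). It ran from -0.73 to 0.87 (median 0.09) with LPS and from -2.02 to -1.39 (median -1.79) untreated. Il12rb2 ran from -3.25 to -2.31 (median -2.59) and from -2.88 to -2.01 (median -2.07), and its difference of -0.42 ± 0.24 did not pass (adjusted p = 0.176). With scan day as a block that same difference passed (adjusted p = 0.0327), and with slide as a block it was -0.47 (adjusted p = 0.0122). The T cell marker list also stood higher with LPS, with a summed level of 0.64 to 2.38, against -1.61 to -0.61 untreated. Its gene Lck averaged 0.80 with LPS and -4.30 untreated and was the 1 gene of 8 that passed, while the other 7 differed by -0.004 to 0.78. Of its CD3 genes, Cd3d was well above background on 1 of 7 LPS arrays and 3 of 7 untreated arrays, Cd3g on 6 of 7 in both groups and Cd3e on all. The part of such markers in these results was not tested.

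The arrays were scanned on 5 days, each of which held LPS and untreated arrays. Within days the LPS difference ran from 7.59 to 9.74 for Il12b, from 3.21 to 4.53 for Il12a, from 4.05 to 5.09 for Il27 and from 2.45 to 2.69 for Ebi3. For Il12rb1 it ran from 1.29 to 2.43, and for Il23a from 0.23 to 2.65. All 6 were positive on all 5 days.

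IL-4 alone went with less Ebi3 and Il12b RNA, and the other 5 genes did not pass the test. Of the 7 genes 0 were higher and 2 lower, against 5.78% and 5.53% of all genes. Ebi3 was at 4.33, 4.44, 4.50 and 4.02 in IL-4 and between 4.92 and 5.53 untreated, and fell by 0.92 on the log2 scale (± 0.17, adjusted p = 0.000553), with no overlap. Il12b was not well above background on any of the 4 IL-4 arrays, against 5 of 7 untreated arrays, so that it was at least 1.15-fold lower (fitted change -2.21 ± 0.49, adjusted p = 0.00282). With normexp correction this change was 0.19 and did not pass (adjusted p = 0.923), and with slide as a block it was -1.72 (adjusted p = 0.0576). Il27 differed by 0.24 ± 0.36, Il12rb1 by 0.24 ± 0.27 and Il12rb2 by -0.56 ± 0.28, none of which passed. Il12a (-0.49 ± 0.50) and Il23a (-0.06 ± 0.61) did not pass either, and were well above background on 1 and 0 of the 4 IL-4 arrays. Within the 3 scan days that held both groups, Ebi3 differed by -1.03 to -0.90 and Il12b by -2.56 to -1.50.

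The LPS, IL-4 and IFN-γ groups were all set against the same 7 untreated arrays. IFN-γ alone moved the receptor side of the family. Of the 7 genes 3 were higher and 0 lower, against 12.7% and 13.2% of all genes. Il12rb1 stood at 5.39, 5.50 and 5.21 in IFN-γ and between -2.02 and -1.39 untreated, a rise of 7.11 ± 0.30 or 138-fold (adjusted p = 1.31e-14). On the 2 scan days with both groups the rise was 7.07 and 7.23. Il12rb2, the partner chain, stood at -0.19, -0.33 and -1.77 in IFN-γ and between -2.88 and -2.01 untreated, and rose by 1.49 ± 0.31 (2.82-fold, adjusted p = 0.000629). Replicate G was the low one of the 3 IFN-γ arrays, and the rise was 1.79 on the scan day of the other 2 and 0.57 on its own. With normexp correction the rise of Il12rb2 was 1.06 (adjusted p = 0.0549).

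Of the 5 cytokine genes, Il12b alone passed the test with IFN-γ. It was at -2.66, -3.96 and -4.57 and between -6.47 and -4.62 untreated, and rose by 1.83 ± 0.54 (3.56-fold, adjusted p = 0.0133). The highest untreated and the lowest IFN-γ array were nearly level, and without IFN-γ replicate E the rise was 1.30 (adjusted p = 0.151). With the experiment letter as a block it was 1.59 (adjusted p = 0.0761), and with normexp correction 0.19 (adjusted p = 0.824). Il27 was at 0.57, 0.58 and 0.47 and between -0.60 and -0.11 untreated, without overlap, but the difference of 0.88 ± 0.40 did not pass (adjusted p = 0.109). With only the untreated and IFN-γ arrays in the model it did (adjusted p = 0.00221). Ebi3, Il12a and Il23a differed by -0.16 ± 0.19, -0.64 ± 0.55 and -0.91 ± 0.67, and none passed. With quantile normalization the Ebi3 difference was -0.64 and passed (adjusted p = 0.00566). The NK cell marker list, whose cells carry the IL-12 receptor, had a summed level of -1.28 to -0.46 in IFN-γ and -3.79 to -1.30 untreated. Of its 6 genes Ncr1, Eomes and Gzma were not well above background on any IFN-γ array, and Klrk1 averaged -0.84 in IFN-γ and -6.47 untreated. Klrk1 was the 1 gene of the list that was higher, while Klrb1c was lower (-1.78, adjusted p = 0.000811) and Nkg7 differed by -0.94 and did not pass. The part of such markers in the receptor result was not tested.

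**Figure D2:**
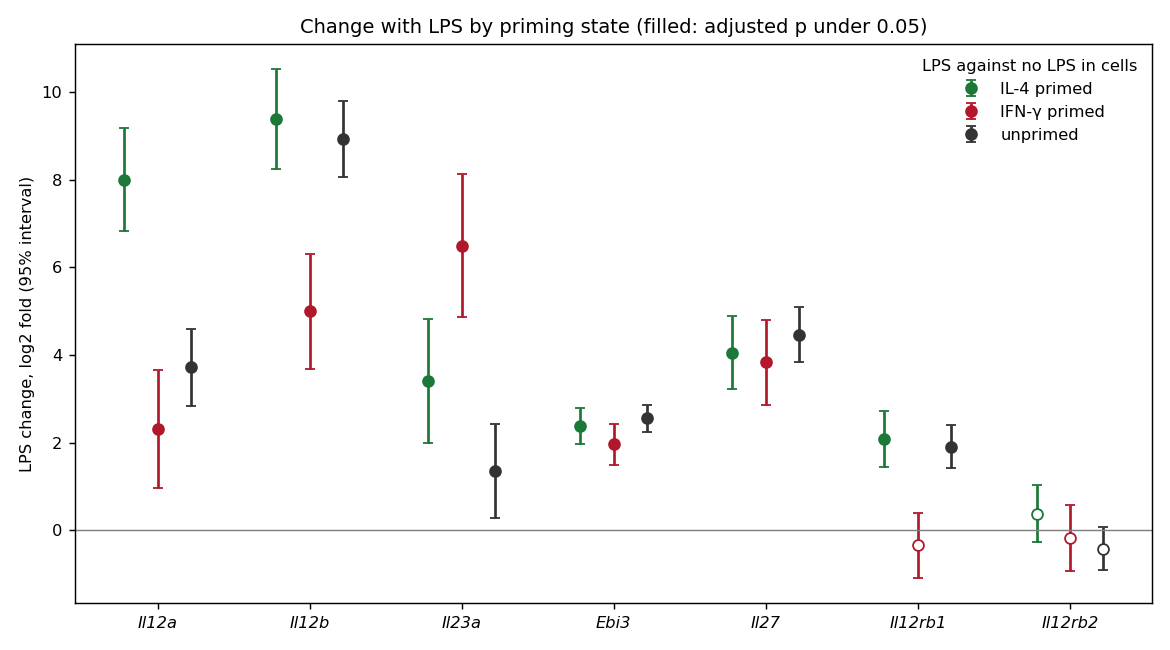
Change with LPS (vertical axis, log2 fold change with its 95% interval) of each gene in IL-4 primed, IFN-γ primed and unprimed cells, where filled points passed at adjusted p under 0.05. The Il12a change was 8.00 after IL-4, against 3.72 unprimed, and the Il12b change was 4.99 after IFN-γ, against 8.92 unprimed. The Il23a point after IFN-γ is the fitted change of 6.50, against 1.35 unprimed. Il23a was not well above background on any array of IFN-γ alone, so its rise is given as at least 26.5-fold. The points of Il12b and Il23a after IL-4 are likewise fitted changes, from arrays of IL-4 alone on which neither was well above background.

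In IL-4 primed cells LPS raised 6 of the 7 genes and lowered 0, against 15% and 16.3% of all genes. Il12a stood at 1.31, 1.24, 2.42 and 2.61 in IL-4 with LPS and at -7.49, -5.96, -5.39 and -5.57 in IL-4 alone, and rose by 8.00 ± 0.57 (256-fold, adjusted p = 3.23e-11). All 4 LPS arrays exceeded all 4 others by over 6 log2 units. In IL-4 alone Il12a was well above background on 1 of 4 arrays, so the size of its rise is uncertain. Il12b stood at 1.63, 0.38, 2.93 and 1.48 in IL-4 with LPS and was not well above background in IL-4 alone, and rose at least 165-fold (adjusted p = 1.16e-12). Il23a, well above background on all 4 arrays of IL-4 with LPS and on 0 of 4 of IL-4 alone, was at least 2.66-fold higher (adjusted p = 0.000323), and with normexp correction its change was 0.38 (adjusted p = 1).

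The IL-27 chains and Il12rb1 rose in IL-4 primed cells too. Il27 was at 4.31, 2.09, 4.66 and 4.76 in IL-4 with LPS and at -0.63, -0.13, 0.19 and 0.17 in IL-4 alone, and rose by 4.06 ± 0.41 (adjusted p = 1.41e-08). Replicate B of IL-4 with LPS was far below the other 3, yet above all arrays of IL-4 alone. Ebi3 was at 6.75, 6.63, 7.19 and 6.21 in IL-4 with LPS and between 4.02 and 4.50 in IL-4 alone, and rose by 2.37 ± 0.20 (adjusted p = 5.24e-10). Il12rb1 was at 0.81, 0.84, 1.26 and -0.62 in IL-4 with LPS and between -1.67 and -1.32 in IL-4 alone, and rose by 2.07 ± 0.31 (adjusted p = 7.13e-06). Il12rb2 differed by 0.38 ± 0.32 and did not pass (adjusted p = 0.436).

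In IFN-γ primed cells LPS raised the 5 cytokine genes and lowered 0 of the 7, against 5.68% and 6.31% of all genes. Il23a was not well above background on any of the 3 arrays of IFN-γ alone and stood at -1.15, -1.60 and -3.60 with LPS, at least 26.5-fold higher (adjusted p = 4.29e-06). Replicate G was the low one, yet the 3 arrays were well above background. Il12b was at 0.46, 1.51 and 1.81 in IFN-γ with LPS and at -2.66, -3.96 and -4.57 in IFN-γ alone, and rose by 4.99 ± 0.64 (31.8-fold, adjusted p = 7.85e-06). Il27 rose by 3.83 ± 0.47 (adjusted p = 4.29e-06), to 4.29, 4.21 and 4.60 in IFN-γ with LPS, against 0.47 to 0.58 in IFN-γ alone. Ebi3 rose by 1.96 ± 0.23 (adjusted p = 2.02e-06), to 6.88, 7.24 and 7.02, against 4.94, 4.80 and 5.53.

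Il12a rose least securely of the 5 in IFN-γ primed cells. It was at -4.09, -3.77 and -3.96 with LPS and at -5.94, -5.89 and -6.94 without, a change of 2.31 ± 0.66 (4.97-fold, adjusted p = 0.02). It no longer passed with quantile normalization (1.92, adjusted p = 0.0735), median scaling (2.20, adjusted p = 0.063), normexp correction (1.74, adjusted p = 0.176) or without IFN-γ replicate G (1.97, adjusted p = 0.112), and also not without IFN-γ with LPS replicate E or F. The receptor genes, already high with IFN-γ, differed by -0.34 ± 0.36 (Il12rb1) and -0.17 ± 0.36 (Il12rb2), and neither passed.

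The interaction terms compare the LPS change in primed and unprimed cells. After IL-4, 1 of the 7 genes had a larger LPS change and 0 a smaller one, against 0.909% and 0.686% of all genes. That gene was Il12a, whose LPS change was 4.28 ± 0.71 larger in IL-4 primed cells (adjusted p = 0.00104). On the 3 scan days that held all 4 groups the value was 4.79, 4.22 and 4.48. Since Il12a was well above background on 1 of 4 IL-4 arrays, its baseline there is uncertain, and with normexp correction the term was 2.73 (adjusted p = 0.246). The corresponding terms were 0.45 ± 0.69 for Il12b, 2.06 ± 0.86 for Il23a, -0.18 ± 0.25 for Ebi3, -0.41 ± 0.51 for Il27, 0.16 ± 0.39 for Il12rb1 and 0.79 ± 0.40 for Il12rb2, and none of them passed. In IL-4 alone Il12b and Il23a were not well above background on any of the 4 arrays, so the sizes of their terms are uncertain. With slide as a block the Il12rb2 term was 0.85 and passed (adjusted p = 0.042).

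After IFN-γ, 1 gene had a larger LPS change and 2 a smaller one, against 3.04% and 5.29% of all genes. The LPS change of Il23a was larger by 5.15 ± 0.95 (adjusted p = 0.000765), a term that rests on levels below background in IFN-γ alone and on most unprimed arrays. The LPS change of Il12b was smaller, with a term of -3.93 ± 0.76 (adjusted p = 0.00124), and so was that of Il12rb1, at -2.25 ± 0.43 (adjusted p = 0.001). With normexp correction the Il23a term was 2.85 (adjusted p = 0.127) and the Il12b term -2.39 (adjusted p = 0.178), while that of Il12rb1 passed under all the alternatives. On the 2 scan days with all 4 groups the terms were 5.41 and 4.23 for Il23a, -4.91 and -3.36 for Il12b, and -2.38 and -1.77 for Il12rb1. The terms for Il12a (-1.40 ± 0.78), Ebi3 (-0.60 ± 0.27), Il27 (-0.64 ± 0.56) and Il12rb2 (0.25 ± 0.44) did not pass. With slide as a block those for Il12a (-1.48, adjusted p = 0.0186) and Ebi3 (-0.57, adjusted p = 0.0485) did.

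Among LPS-treated cells, IL-4 priming moved the 2 IL-12 chains in opposite directions. Of the 7 genes 2 were higher and 2 lower than with LPS alone, against 4.37% and 4.6% of all genes. Il12a stood at 1.24 to 2.61 in IL-4 with LPS and at -3.53 to -0.38 in LPS alone, 3.80 ± 0.50 higher (13.9-fold, adjusted p = 9.78e-06), and all 4 primed arrays lay above all 7 others. Il12b stood at 0.38 to 2.93 and at 1.94 to 4.46, with overlap, and was lower, at -1.76 ± 0.49 (adjusted p = 0.0224). That call did not hold in 9 settings, among them slide as a block (-1.40, adjusted p = 0.0643), the experiment letter as a block (-1.73, adjusted p = 0.0706) and the array sets without IL-4 with LPS replicate A, B or G or LPS replicate G, where it ran from -1.77 to -1.35. On the 3 shared scan days the Il12b difference was -1.45, -0.04 and -2.39, and that of Il12a 4.08, 2.80 and 4.11.

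Ebi3 was at 6.21 to 7.19 in IL-4 with LPS and at 7.58 to 8.22 in LPS alone, and was lower, at -1.11 ± 0.17 (adjusted p = 9.89e-05), with no overlap. On the shared scan days its difference was -1.09, -1.03 and -1.37. Il23a was at -4.09, -5.66, -4.23 and -3.43 in IL-4 with LPS and at -7.63 to -5.03 in LPS alone, with 4 of 4 and 2 of 7 arrays well above background. It was 2.00 ± 0.61 higher (3.99-fold, adjusted p = 0.0396), and 11 other settings ended that call, among them normexp correction (0.52, adjusted p = 1), median scaling (1.89, adjusted p = 0.0615) and the sets without any of 3 arrays of IL-4 with LPS (A, C or G) or 4 LPS arrays (A, B, C or G), where it ran from 1.69 to 2.01. Il27 (-0.17 ± 0.36), Il12rb1 (0.40 ± 0.27) and Il12rb2 (0.23 ± 0.28) did not pass, although Il12rb1 did without IL-4 with LPS replicate G (0.80, adjusted p = 0.0416). The dendritic cell marker list, whose cells are another source of IL-12, had a summed level of 5.11 to 6.09 in IL-4 with LPS and 1.23 to 3.64 in LPS alone, with Itgax at 5.01 to 6.01 and at -8.38 to 2.46, the lowest of these on the 1 LPS array of 7 where it was not above background. Itgax was the 1 gene of the list that passed, and Zbtb46 (-1.06), Ccr7 (-0.21), Flt3 (0.44) and Xcr1 (0.07) did not. The B cell list also stood higher, at 1.66 to 2.84 in IL-4 with LPS and 0.23 to 1.27 in LPS alone, where Cd79b was 1.97 higher (adjusted p = 2.23e-05) and the other 4 genes did not pass. Of the 7 dendritic cell genes Cd209a and Siglech were not well above background on any array of IL-4 with LPS. The summed level of the dendritic cell list was 4.6 to 5.61 in IL-4 alone and 3.42 to 4.14 in IFN-γ with LPS. The part of the dendritic and B cell markers in the cytokine results was not tested.

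IFN-γ priming of LPS-treated cells went with more Il23a and receptor RNA and less Il12a, Il12b and Ebi3 RNA than LPS alone. The 7 LPS arrays are the same as in the comparison with IL-4 priming. Of the 7 genes 3 were higher and 3 lower, against 10.7% and 12.1% of all genes. Il23a was 4.23 ± 0.67 higher (18.8-fold, adjusted p = 4.68e-05), with the lowest IFN-γ with LPS array at -3.60 and the highest LPS array at -5.03, and with normexp correction it was 1.98 higher (adjusted p = 0.078). On the 2 shared scan days its difference was 5.76 and 2.68. Il12rb1 was at 4.97, 5.38 and 4.73 in IFN-γ with LPS and at -0.73 to 0.87 in LPS alone, 4.86 ± 0.30 higher (29.0-fold, adjusted p = 8.05e-11). Il12rb2 was at -0.39, -0.59 and -1.82 in IFN-γ with LPS and at -3.25 to -2.31 in LPS alone, 1.74 ± 0.31 higher (adjusted p = 0.000161).

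The IL-12 chains both stood lower after IFN-γ and LPS. Il12b was at 0.46 to 1.81 in IFN-γ with LPS and at 1.94 to 4.46 in LPS alone, a difference of -2.10 ± 0.54 (adjusted p = 0.00555), and without IFN-γ with LPS replicate E it was -1.70 (adjusted p = 0.0712). Il12a was at -4.09 to -3.77 and at -3.53 to -0.38, a difference of -2.04 ± 0.55 (adjusted p = 0.00833), and -0.87 with normexp correction (adjusted p = 0.527). Ebi3 was at 6.88 to 7.24 and at 7.58 to 8.22, a difference of -0.76 ± 0.19 (adjusted p = 0.00505), which with median scaling was -0.49 (adjusted p = 0.226). The groups overlapped for none of these 3 genes. Il27 stood at 4.21 to 4.60 and at 3.16 to 4.91, a difference of 0.24 ± 0.40 that did not pass (adjusted p = 0.704).

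**Figure D3:**
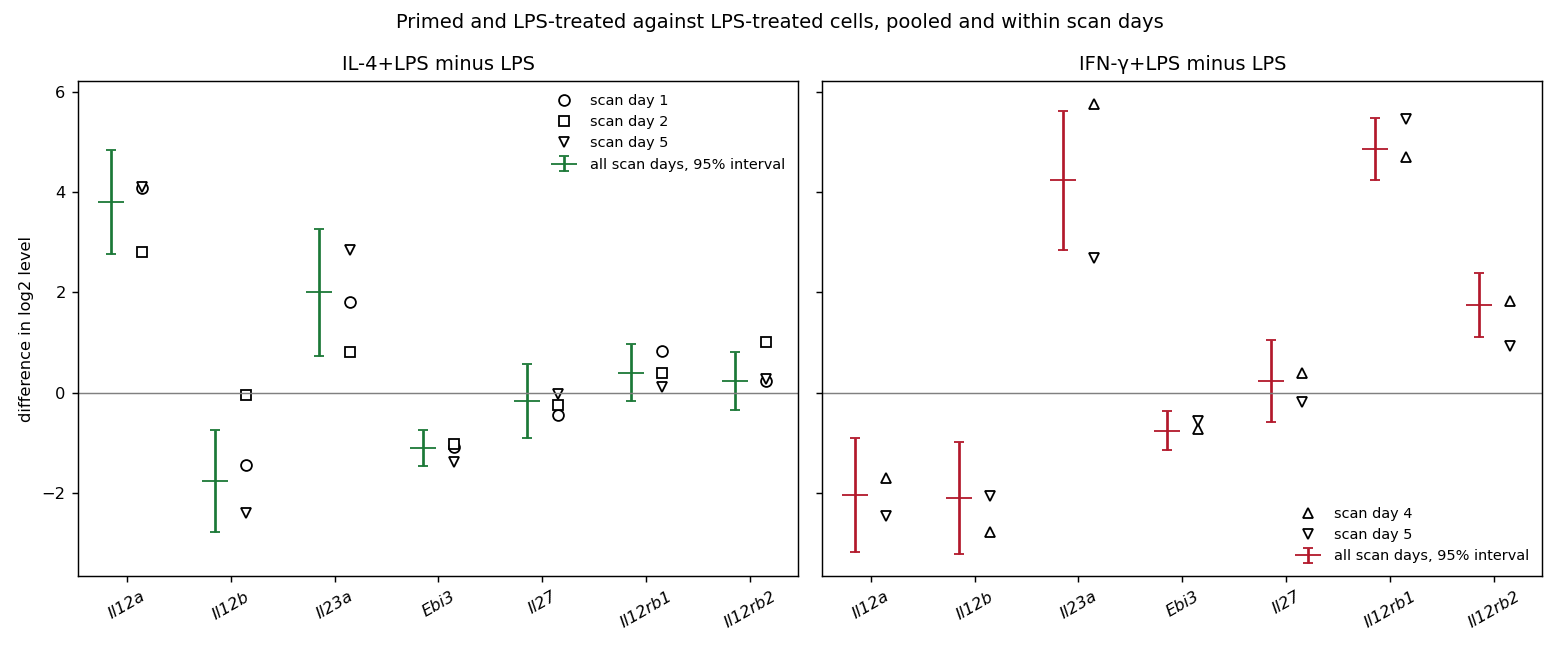
Difference in log2 level (vertical axis) between primed and LPS-treated cells and cells given LPS alone, over all arrays with the 95% interval (coloured) and within each scan day that held both groups (open symbols). Il12a lay between 2.80 and 4.11 higher after IL-4 on the 3 days and lower after IFN-γ on both days, while Il12b after IL-4 was -0.04 on scan day 2.

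Set against each other after LPS, IL-4 primed cells held more Il12a and less receptor RNA than IFN-γ primed cells. Of the 7 genes 1 was higher and 3 lower, against 13.9% and 11.7% of all genes. Il12a was 5.84 ± 0.61 higher (57.2-fold, adjusted p = 1.45e-07), and on the 1 scan day with both groups it was 6.57 higher. Il12rb1 was lower, at -4.46 ± 0.33 (adjusted p = 7.25e-10), and Il12rb2 was lower, at -1.51 ± 0.34 (adjusted p = 0.00159). Il23a was also lower, at -2.24 ± 0.74 (adjusted p = 0.0277), but its groups overlapped. The call was lost in 6 settings, and over shared letters the difference also turned in sign. Only replicate G had both groups on 1 scan day, where Il23a differed by 0.17 and Il12rb2 by -0.65, and over arrays of that letter alone neither passed (adjusted p = 0.999 and 0.769). Without IL-4 with LPS replicate B the Il23a difference was -1.80 (adjusted p = 0.0973), without IFN-γ with LPS replicate E -1.76 (adjusted p = 0.154) and without replicate F -1.98 (adjusted p = 0.116). Il12b (0.34 ± 0.60), Ebi3 (-0.35 ± 0.21) and Il27 (-0.41 ± 0.44) did not pass. With scan day as a block the Ebi3 difference was -0.58 and passed (adjusted p = 0.0191).

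Without LPS, IL-4 cells held less of 4 of the 7 RNAs than IFN-γ cells and more of 0, against 13% lower and 14.8% higher of all genes. Il12rb1 was at -1.67 to -1.32 in IL-4 and at 5.21 to 5.50 in IFN-γ, a difference of -6.87 ± 0.33 (adjusted p = 5.88e-14). Il12rb2 was at -3.03 to -2.51 in IL-4 and at -1.77 to -0.19 in IFN-γ, a difference of -2.06 ± 0.34 (adjusted p = 4.49e-05), which over letter G alone was -1.03 (adjusted p = 0.418). Il12b was at least 4.09-fold lower (adjusted p = 9.89e-06), a call that ended with normexp correction (adjusted p = 1). Ebi3 was lower, at -0.77 ± 0.21 (adjusted p = 0.00782), and without IFN-γ replicate G at -0.54 (adjusted p = 0.0712). Il12a (0.15 ± 0.61), Il23a (0.86 ± 0.74) and Il27 (-0.64 ± 0.44) did not pass, and with slide as a block the Il27 difference was -1.02 and passed (adjusted p = 0.045).

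Within an array the ratio of 2 signals does not depend on how arrays are scaled. Ratios were formed for 6 partner pairs, and the 3 LPS-treated groups were compared for each by exact two-sided permutation tests, adjusted over the 18 tests. The ratio levels themselves depend on probe brightness, so only their differences between groups are given. The Il12b to Il12a ratio, the 2 chains of IL-12, was lower in IL-4 with LPS than in LPS (difference -5.55, exact permutation adjusted p = 0.0273), and the 4 arrays did not overlap with the 7. In IFN-γ with LPS it differed from LPS by -0.06 (exact permutation adjusted p = 0.882), where Il12b and Il12a differed by -2.10 and -2.04. The Ebi3 to Il12a ratio, the IL-35 pair, differed by -4.90 in IL-4 with LPS (exact permutation adjusted p = 0.0273) and by 1.28 in IFN-γ with LPS (exact permutation adjusted p = 0.0923).

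The balance between the alternative partners of p40, Il12a over Il23a, moved in opposite directions. It differed from LPS by 1.80 in IL-4 with LPS (exact permutation adjusted p = 0.0273) and by -6.28 in IFN-γ with LPS (exact permutation adjusted p = 0.0429). The Il12b to Il23a ratio, the IL-23 pair, differed by -3.75 (exact permutation adjusted p = 0.0273) and -6.33 (exact permutation adjusted p = 0.0429) in the same comparisons. Ratios with Il23a use LPS arrays on which Il23a was mostly below background. The Ebi3 to Il27 ratio, the IL-27 pair, differed by -0.94 after IL-4 and -0.998 after IFN-γ, and neither passed (exact permutation adjusted p = 0.16 and 0.075). The Il12rb1 to Il12rb2 ratio differed by 3.11 in IFN-γ with LPS (exact permutation adjusted p = 0.0429), where Il12rb1 differed by 4.86 and Il12rb2 by 1.74. With normexp correction 0 of the 7 ratio differences called passed (exact permutation adjusted p from 0.0545 to 0.193), and the Il12a to Il23a ratio was then 2.49 after IL-4 and -2.85 after IFN-γ. The 3 called differences between IFN-γ with LPS and LPS did not pass when any 1 of the 10 arrays was left out (exact permutation adjusted p from 0.0536 to 0.143). In each case the exact p was already the smallest that the arrays left allow. Without 1 IFN-γ with LPS array no exact p can be under 0.05. These settings therefore cannot show whether the differences depend on 1 array. Without IL-4 with LPS replicate B the Ebi3 to Il27 difference was -1.54 and passed (exact permutation adjusted p = 0.0375). The IL-4 with LPS and IFN-γ with LPS groups, 4 arrays against 3, cannot give a p under 0.0571.

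**Figure D4:**
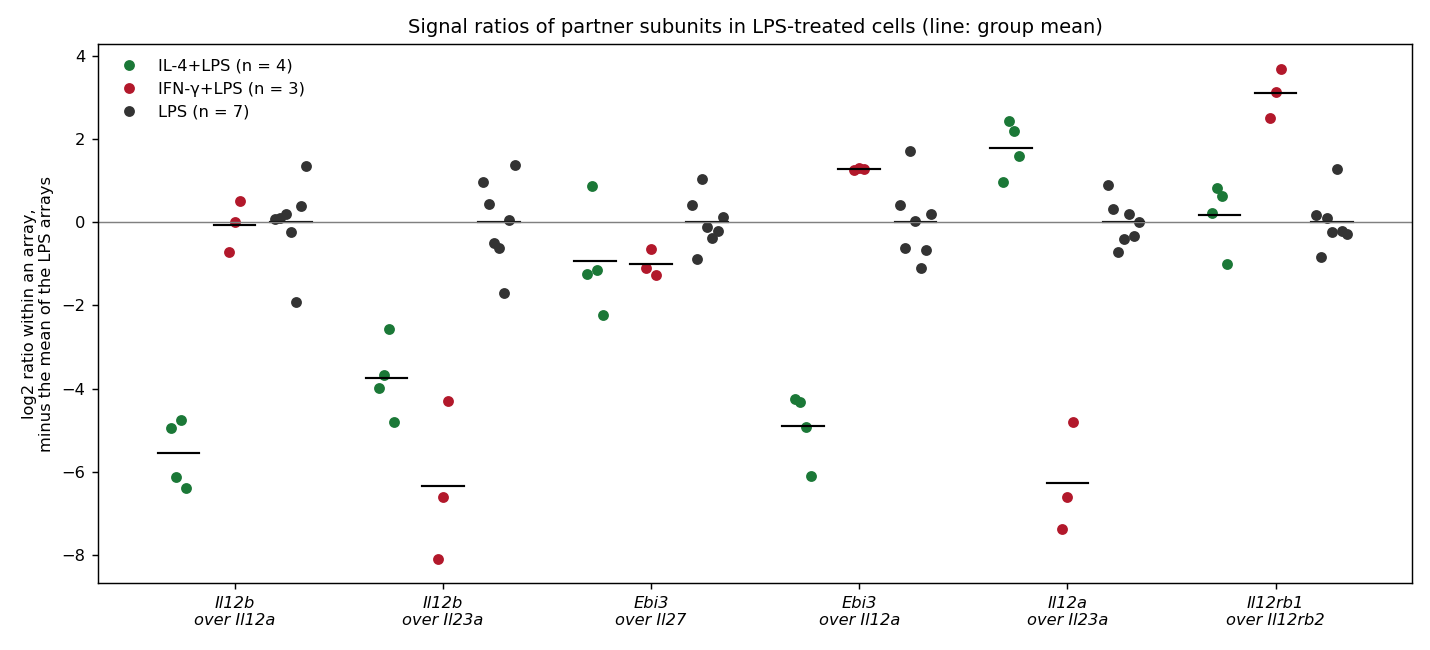
Log2 ratio of partner signals within each array (vertical axis), minus the mean of the 7 LPS arrays, for IL-4 with LPS, IFN-γ with LPS and LPS. Lines are group means. Il12b over Il12a averaged -5.55 after IL-4 and -0.06 after IFN-γ, and Il12a over Il23a averaged 1.80 after IL-4 and -6.28 after IFN-γ.

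The order of the 6 groups differed between genes. For Il12a the order was IL-4 with LPS, LPS, IFN-γ with LPS, untreated, IL-4 and IFN-γ, and the last 4 overlapped with their neighbours. For Il12b it was LPS, IL-4 with LPS, IFN-γ with LPS, IFN-γ, untreated and IL-4, where the 3 LPS-treated groups overlapped with their neighbours and the others did not. For Il23a it was IFN-γ with LPS, IL-4 with LPS, LPS, untreated, IL-4 and IFN-γ, and every neighbour overlapped with the next except IL-4 with IFN-γ, neither of which was above background. Both receptor genes had the 2 IFN-γ groups on top, which overlapped with each other and with no other group.

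The genes whose levels were most like each member over the 28 arrays are given as a description. They were Has1 (r = 0.964), Schip1 (0.961) and Lad1 (0.943) for Il12a, Plagl2 (0.980) and 2 probes with only the array's own names (0.983 and 0.981) for Il12b, and Cdk5r1 (0.915), Txnrd2 (0.863) and Ppfia3 (0.853) for Il23a. For Ebi3 they were Agrn (0.970), Susd6 (0.967) and Ift57 (0.964), and for Il27 St3gal1 (0.979), Mapkbp1 (0.974) and Fam177a (0.973). For Il12rb1 they were Pacsin1 (0.974), Slamf8 (0.969) and Slc6a19 (0.967), and for Il12rb2 Naa80 and Pcnx (both 0.911) and Cdk5rap2 (0.895). The 28 points share 6 treatments and are not independent.

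The other receptor chains and the signalling genes of the family gave 13 genes on a list. Of the 13, 10 were higher and 1 lower with LPS in unprimed cells (median 1.67), 8 higher and 2 lower with IFN-γ alone (0.89) and 4 higher and 2 lower with IL-4 alone (0.41), against medians of 0.05, -0.29 and 0.01 over all genes. Of all genes, 20.8% were higher and 21.6% lower with LPS, 12.7% and 13.2% with IFN-γ, and 5.78% and 5.53% with IL-4. Il23r, the second chain of the IL-23 receptor, was not well above background on any untreated array and averaged -2.53 in IFN-γ, -3.77 in LPS and -1.79 in IFN-γ with LPS. It was lower in IL-4 with LPS than in IFN-γ with LPS, at -3.44 ± 0.54 (adjusted p = 3.37e-05). Il23r was well above background on 2 of 4 arrays of IL-4 with LPS, so the size of this difference is uncertain. The IL-27 receptor genes went the other way between primings. Il27ra was higher in IL-4 with LPS than in IFN-γ with LPS by 2.72, and Il6st, which encodes gp130, by 1.43, and both were higher with IL-4 alone than untreated (2.07 and 1.25). Stat4, which carries the IL-12 signal, was lower with IL-4 alone than untreated (-2.75), and higher in IFN-γ with LPS than in LPS alone (1.73). All of these passed at adjusted p under 0.05.

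On the list of 26 transcription factors known to act at promoters of the family, 20 were higher and 3 lower with LPS in unprimed cells (median 1.84), and 17 higher and 2 lower with IFN-γ alone (median 1.24). These shares of all genes were 20.8% and 21.6% with LPS, and 12.7% and 13.2% with IFN-γ. Between IL-4 with LPS and LPS alone, where Il12a differed 13.9-fold, 3 were higher and 3 lower (median 0.01), against 4.37% and 4.6% of all genes. The 3 higher ones were Batf3 (3.93), Cebpa (1.14) and Irf8 (0.91), and Jun (-2.35) and Irf5 (-1.04) were among the 3 lower ones. Rel, an NF-κB subunit, differed by 0.14 and did not pass. Between IFN-γ with LPS and LPS alone, 6 were higher and 3 lower, against 10.7% and 12.1% of all genes, among them Irf8 (1.98) and Irf1 (1.26), and Cebpd (-2.05) and Jun (-1.98).

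Among 11 other LPS cytokine genes that were tested, 10 were higher and 0 lower with LPS in unprimed cells, against 20.8% and 21.6% of all genes. Between IL-4 with LPS and LPS alone 0 were higher and 1 was lower, Il10 (-1.45), against 4.37% and 4.6% of all genes. Between IFN-γ with LPS and LPS alone 3 were higher, Il1a (2.34), Ifnb1 (2.33) and Tnf (1.45), and 1 was lower, Il18 (-1.04), against 10.7% and 12.1% of all genes. Tnf differed by 0.05 and Il6 by 1.59 between IL-4 with LPS and LPS alone, and neither passed. Of 7 tested genes that IL-12 is known to raise in T and NK cells, 1 was higher and 2 lower in IL-4 with LPS than in LPS alone, against the same 4.37% and 4.6%. Ifng was the higher one (2.34), well above background on 4 of 4 and 3 of 7 arrays, while Tbx21 differed by 0.23 and did not pass. The 2 lower ones were Il18rap (mean -2.35 in IL-4 with LPS and -0.66 in LPS) and Cxcr3 (-2.03 and -0.43). Both were well above background on every array of the 2 groups.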

How the data were processed

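RNA of cultured macrophages was hybridised to 28 one-colour Agilent arrays and read with Feature Extraction 9.5.1, per the file headers. The deposited intensity values are processed signals that were detrended within each array, with low spots replaced by surrogate values and no scaling between arrays, per the file headers. The authors' deposited value table holds log2 values that are centred for each probe. How it was centred is not given in the sources used here, and it served only to check the labels.

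Control and outlier spots were left out, spots of a probe were averaged, and each array's log2 signal was reduced by its 75th percentile. Each gene was represented by its brightest probe. Genes whose probe was well above background on at least 3 arrays were tested in limma 3.58.1 (R 4.3.3) with 1 mean for each of the 6 groups over all 28 arrays, in 11 comparisons, with Benjamini-Hochberg adjustment over 22452 genes. Ratios of partner genes were compared by exact permutation (SciPy 1.17.1, Python 3.11.15). The number of arrays limits the precision.

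The alternatives were quantile normalization, median scaling, normexp background correction (offset 50), other probe and filter rules, scan day, slide or experiment letter as a block, only the groups compared, only shared letters, and each array left out. Same-lettered arrays deviated together in every pair for IL-4 with LPS and IL-4 (correlations of 0.154 to 0.726) and for IFN-γ with LPS and IFN-γ (0.276 to 0.636), where the block changed no call. The 1 pair of IL-4 with LPS and IFN-γ with LPS also did (0.528). There the letter block ended the limma call of Il23a (-1.35, adjusted p = 0.29). The 2 arrays of each of these primed pairs were also scanned on the same day, so letter and scan day cannot be told apart there. Same-lettered untreated and LPS arrays, which were scanned on different days, had correlations of -0.496 to 0.166.

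The 7 genes, the gene lists and the tests were chosen with earlier results of these data known. All 7 were reported in every comparison. From each list up to 4 called genes with the largest change were named, beside a fixed set (Il23r, Il27ra, Il6st, Stat4, Irf1, Irf8, Rel, Il10, Il6, Tnf, Ifng and Tbx21), and for each member the 3 genes with the highest Pearson correlation. Promoter sequences are RefSeq's, on GRCm38.p6.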

Additional observations from a re-analysis of the deposited data

Results flagged for a closer look

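Il27 in IL-4 with LPS replicate B stood at 2.09, apart from the other 3 arrays of its group (4.31, 4.66 and 4.76). The gap to its nearest neighbour was 0.83 of the group's range. It was 1 of 28 sets of values examined in this way, and chance alone sets apart about 1 in 20.

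The LPS change differed between primed and unprimed cells for 4 genes by the interaction term. The fitted term was 4.28 for Il12a after IL-4, where Il12a was well above background on 1 of 4 arrays of IL-4 alone, and 5.15 for Il23a after IFN-γ, where Il23a was so on 0 of 3 arrays of IFN-γ alone, 1 of 7 untreated and 2 of 7 LPS arrays. These sizes depend on signals near background, and with normexp correction the terms were 2.73 (adjusted p = 0.246) and 2.85 (adjusted p = 0.127), neither of which passed. It was smaller after IFN-γ for Il12b (-3.93, and -2.39 with normexp correction, adjusted p = 0.178) and for Il12rb1 (-2.25).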

How the results depend on the processing

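Of 44 calls on the 7 genes, 24 held under every alternative applied to them and with each of the 28 arrays left out. Taking the mean of all probes could not change their values, since each of the 7 genes has a single probe. Normexp correction ended 16, and under it the Il12b change with IL-4 alone turned to 0.19. With only shared letters, Il23a in IL-4 with LPS against IFN-γ with LPS turned to 0.17. Members called under normexp numbered 1 for IL-4 and 1 for IFN-γ against untreated, 2 for IL-4 with LPS against LPS, 2 for IL-4 against IFN-γ, 0 and 1 for the IL-4 and IFN-γ interactions, and 0 partner ratios. With slide as a block they numbered 1 for IL-4 against untreated, and 2 and 5 for the interactions. With only the groups compared, 2 were called between IL-4 with LPS and LPS, and with shared letters 2 between IL-4 with LPS and IFN-γ with LPS. With 1 array left out the counts ran from 2 to 4 for IL-4 with LPS against LPS, and from 4 to 8 for the ratios. Pairing the ratios by experiment letter as a replicate block called 0, where the smallest p is 0.125 or 0.25. Scan day as a block kept all 44 calls.

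Over all genes, normexp called 5559 in place of 9515 for LPS against untreated, 740 in place of 2540 for IL-4 and 2680 in place of 5805 for IFN-γ. It called 3579 in place of 7018 for LPS after IL-4, 882 in place of 2692 for LPS after IFN-γ, 533 in place of 2015 for IL-4 with LPS against LPS, and 2048 in place of 5118 for IFN-γ with LPS against LPS. For IL-4 against IFN-γ it called 3066 in place of 6258, with LPS 2486 in place of 5743, and for the IL-4 and IFN-γ interactions 40 in place of 358 and 737 in place of 1870. Against the same counts, median scaling called 1535 (IL-4), 1412 (LPS after IFN-γ), 1099 (IL-4 with LPS against LPS), and 185 and 1049 (interactions). Scan day as a block called 3935, 5227, 3226, 905 and 3671 in that order, and slide as a block 6973 (LPS after IFN-γ), 11595 (LPS after IL-4), 3833 (IL-4 with LPS against LPS), and 1065 and 4167 (interactions). Shared letters called 1675 (IL-4), 1380 (IL-4 against IFN-γ), 806 (the same with LPS), and 158 and 951 (interactions). With only the groups compared the counts were 1157 (IL-4 with LPS against LPS), 2492 (against IFN-γ with LPS) and 765 (LPS after IFN-γ). For LPS after IFN-γ they were 1763 without IFN-γ replicate G and 1731 without IFN-γ with LPS replicate E, where IFN-γ with LPS against LPS gave 3218. Median scaling moved the all-gene median for IFN-γ against untreated to 0.16, in place of -0.29, and the share of higher calls to 77.8%, in place of 49.0%. The same share was 72.6% in place of 46.8% for IFN-γ with LPS against LPS, 27.6% in place of 53.2% for IL-4 against IFN-γ, 25.4% in place of 54.4% for the same with LPS, 37.7% in place of 48.7% for IL-4 with LPS against LPS, and 25.5% in place of 36.5% for the IFN-γ interaction (18.3% with normexp). No called direction of the 7 genes turned under median scaling or quantile normalization. Levels of Il23a, and of Il12a and Il12b without LPS, lay near the background, which limits their folds.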
